A study of Homo sapiens with 8 samples.

Results

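The mitosis genes are 40 human genes that carry a cell through division: the cyclin B and CDK1 switch, the mitotic kinases, the spindle checkpoint, the ubiquitin machinery of anaphase, the chromosomal passenger complex, the kinetochore, the spindle motors and the cytokinesis machinery. They were taken as a fixed list of symbols, matched through their Ensembl identifiers to the rows of the deposited count files. All 40 were found among the 58395 genes listed, and all 40 passed the filter on low counts that left 16503 genes for testing. The list was not chosen from fold changes, but it was drawn up with earlier results of these data known. The study profiled polysomes in OCI-AML3, an established human acute myeloid leukaemia line, to compare cells with and without knockdown of FBL. FBL encodes fibrillarin, the nucleolar enzyme that methylates ribosomal RNA. Per the labels, there were 4 groups with 2 libraries each: polysome RNA and input RNA from cells labelled FBL knockdown (infected with a hairpin against FBL) and polysome RNA and input RNA from cells labelled WT (infected with a control hairpin, called control here). All cells were treated with cycloheximide, which stops ribosomes on their mRNAs. The input is the cleared lysate and the polysome RNA comes from sucrose gradient fractions of the same lysate. The labels do not say which fractions were combined, whether libraries came from separate cultures, or whether the cells are a clone.

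Mitosis is driven by CDK1 bound to cyclin B, which phosphorylates many proteins and starts spindle assembly, chromosome condensation and nuclear envelope breakdown. Kinetochores built on centromeres attach chromosomes to microtubules, and unattached kinetochores hold anaphase back through the spindle checkpoint. Once all are attached, the anaphase-promoting complex with CDC20 marks securin and cyclin B for destruction, sister chromatids part, and the central spindle guides cytokinesis. The mRNAs of most of these proteins peak in G2 and mitosis, under the DREAM and MYB-MuvB complexes and FOXM1. In bulk RNA, fewer mitotic cells and less RNA per cell cannot be told apart.

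FBL itself, the targeted gene, was examined first because it checks the labels. It stood at 499 and 165 CPM (reads of the gene per mega-read assigned to genes, after TMM scaling) in the polysome libraries labelled knockdown 1 and 2, against 498 and 163 CPM in polysome control 1 and 2. In input RNA it stood at 253 and 84.2 CPM in the libraries labelled knockdown and at 249.95 and 88.1 CPM in the libraries labelled control. FBL was therefore not lower in the libraries labelled knockdown than in those labelled control, and it was lower in library 2 than in library 1 of every group. The log2 fold change of knockdown over control was 0.01 (SE 0.69, adjusted p = 1, edgeR quasi-likelihood test with Benjamini-Hochberg adjustment) in polysome RNA and -0.01 (SE 0.69, adjusted p = 1) in input RNA. FBL thus followed the library number and not the label, and whether the labels or the numbers mark the hairpin against FBL cannot be told from the labels. All comparisons below follow the labels: knockdown and control name libraries so labelled, and no difference between them can be read as an effect of lower FBL.

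Gene counts per library ranged from 22.2 mega-counts in polysome knockdown 2 to 43.1 mega-counts in input knockdown 2. Of 10 myeloid markers, 9 had at least 1 CPM in all 8 libraries, with summed levels of 1306 to 1953 CPM. Lymphoid markers summed to 34.6 to 69.4 CPM, with 4 of 9 at 0 in every library, and erythroid and megakaryocyte markers to 0.289 to 3.38 CPM, with 4 of 8 at 0. Together the 40 mitosis genes held 2936 and 2480 CPM in polysome knockdown 1 and 2 and 3058 and 2738 CPM in polysome control 1 and 2. In input RNA they held 2740 and 2354 CPM in knockdown 1 and 2 and 2902 and 2543 CPM in control 1 and 2. The summed level was thus higher in library 1 than in library 2 of all 4 groups, as FBL was.

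Levels between genes were compared per kilobase of exon. In input RNA the most abundant member was UBE2C, the ubiquitin-conjugating enzyme of the anaphase-promoting complex, at 133 ± 12.1 CPM per kb (SD, n = 4 input libraries). BIRC5 (survivin) followed at 76.8 ± 11.3, PTTG1 (securin, the inhibitor of separase) at 59.1 ± 1.68, CDC20 at 54.2 ± 7.29 and AURKB (the Aurora B kinase) at 52.4 ± 1.81 CPM per kb. Every PTTG1 library lay above every AURKB library, while CDC20 overlapped both. The least abundant were CENPE at 2.67 ± 0.273, ASPM at 2.40 ± 0.205, KIF23 at 2.09 ± 0.350 and PRC1 at 1.71 ± 0.0391 CPM per kb. PRC1 is uncertain, because 58.4% of its exon bases are shared with other annotated genes and reads there can be set aside as ambiguous.

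In polysome RNA UBE2C was again highest at 157 ± 14.3 CPM per kb, followed by PTTG1 at 118 ± 25.5, CDC20 at 117 ± 11.7 and BIRC5 at 96.2 ± 26.8 CPM per kb (SD, n = 4 polysome libraries). KIF23 at 1.04 ± 0.184 and ASPM at 1.06 ± 0.245 CPM per kb were the lowest. The anaphase regulators PTTG1 and CDC20 thus stood above BIRC5 in the mean of the polysome libraries and below it in the mean of the input libraries, although BIRC5 overlapped both of them in polysome RNA. The highest PTTG1 library there also exceeded the lowest UBE2C library.

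The main comparison set polysome RNA against input RNA over the 4 lysates, which asks how much of each mRNA sits on polysomes relative to other mRNAs. The mitosis genes split: 9 of 40 were higher in polysome RNA and 12 of 40 were lower at an adjusted p under 0.05 (edgeR quasi-likelihood test). The higher ones were CDC20, PTTG1, INCENP, KIF2C, CDCA8, PLK1, PRC1, AURKB and CCNB1. The lower ones were NUSAP1, NUF2, ASPM, CCNA2, CDK1, KIF23, TTK, ANLN, KIF11, BUB3, TOP2A and CENPF. Of all genes tested, 20% were higher and 22.8% were lower, 42.9% together, so the number of members called is near this background. Among the 8159 genes that averaged 10 CPM or more, 38.1% were higher and 27.7% were lower, 65.8% together. Of the 39 members among them 9 were higher and 12 lower, so their higher calls fell short of that share. The median log2 fold change was -0.10 over the members and -0.22 over all genes tested, and every change is measured against the rest of the library.

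**Figure D1:**
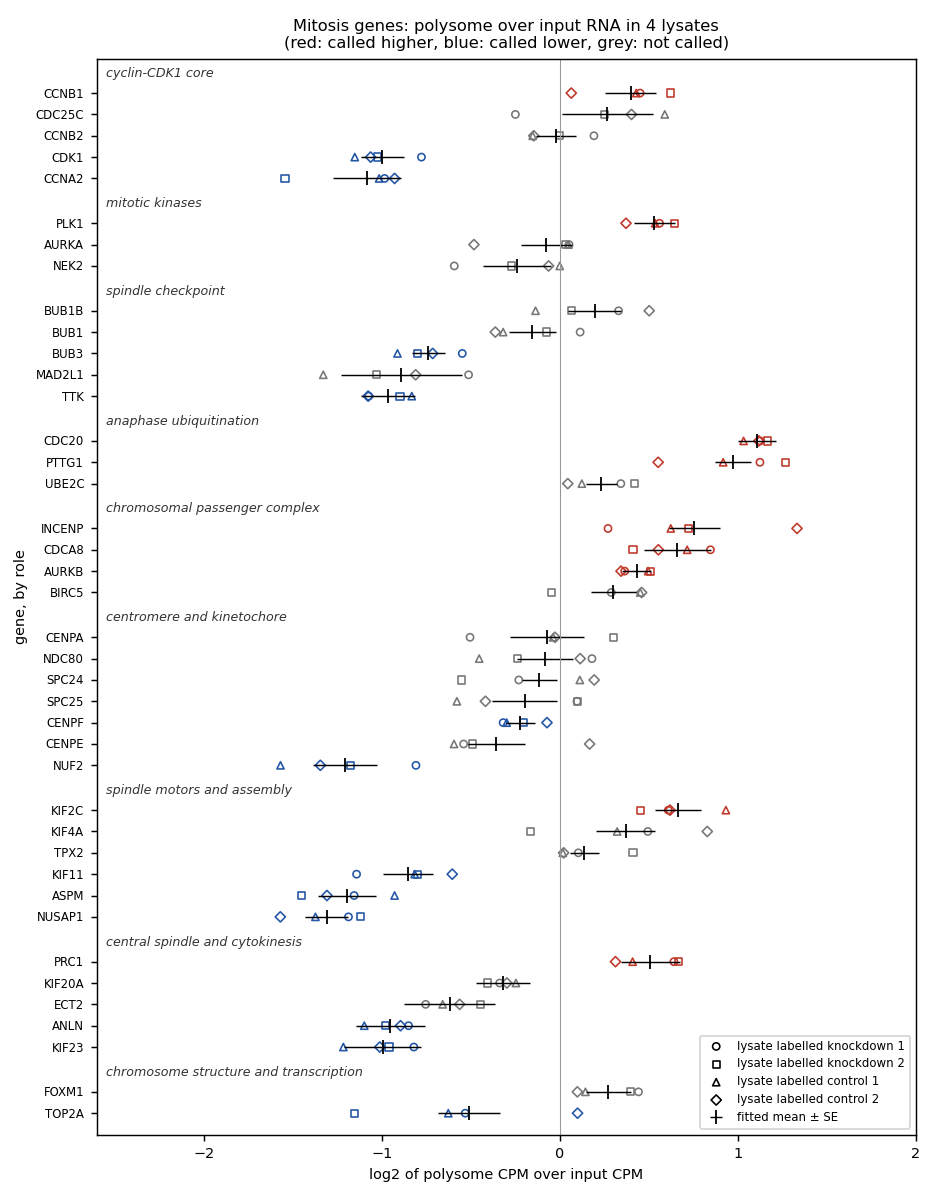
Log2 ratio of polysome CPM to input CPM (x axis) for each of the 40 mitosis genes (y axis, grouped by role), with a symbol for each of the 4 lysates and a bar for the fitted mean ± SE. CDC20, PTTG1 and most of the chromosomal passenger complex lie right of 0, while NUSAP1, NUF2, ASPM, CCNA2 and CDK1 lie near or beyond -1 in most lysates.

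Among the anaphase regulators, CDC20 and PTTG1 had the largest polysome over input ratios of all members. CDC20 (ENSG00000117399, chr1:43358955-43363203, + strand, GRCh38) is the activator of the anaphase-promoting complex. Its level was 250.2, 206, 261 and 234 CPM in the polysome libraries knockdown 1, knockdown 2, control 1 and control 2, against 115, 91.9, 128 and 108 CPM in the input libraries in the same order, which is kept below. Every polysome library was above every input library, and the ratio was 2.16 (log2 1.11, SE 0.11, adjusted p = 2.15e-05). PTTG1 (ENSG00000164611, chr5:160421822-160428744, + strand) had 264, 285, 230 and 168 CPM in polysome RNA and 121, 118, 122 and 114 CPM in input RNA. These groups did not overlap either (log2 0.97, SE 0.10, adjusted p = 3.69e-05), and control 2 was the lowest of the polysome libraries. UBE2C, the third of this group, was higher on polysomes in 4 of 4 lysates but missed the threshold (log2 0.23, SE 0.09, adjusted p = 0.051), and with the lysate as a block its adjusted p was 0.00397. A transcribed pseudogene copy, UBE2CP5, drew 3.39% as many reads as UBE2C. Copies were matched by name, and PTTG3P (of PTTG1) and AURKBP1 (of AURKB) were left out of this check.

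All 4 members of the chromosomal passenger complex, which corrects wrong attachments and later drives cytokinesis, had positive fold changes, and 3 passed the test. INCENP (ENSG00000149503, chr11:62123973-62153163, + strand), its scaffold, had 41.9, 53.0, 64.9 and 98.0 CPM in polysome RNA and 34.7, 32.1, 42.1 and 38.9 CPM in input RNA. The groups overlapped narrowly, since polysome knockdown 1 was just below input control 1 (log2 0.76, SE 0.14, adjusted p = 0.00187). CDCA8 (borealin, ENSG00000134690, chr1:37692418-37709719, + strand) had 65.3, 38.0, 96.1 and 67.9 CPM in polysome RNA and 36.3, 28.5, 58.5 and 46.3 CPM in input RNA. The polysome library was the higher one in each lysate, while the groups overlapped (log2 0.66, SE 0.19, adjusted p = 0.0169). AURKB, the kinase of the complex, averaged 158 ± 11.7 CPM in polysome RNA and 117 ± 4.05 CPM in input RNA (SD, n = 4 each) with no overlap (log2 0.43, SE 0.08, adjusted p = 0.00186). BIRC5 reached 0.30 on the log2 scale (SE 0.13, adjusted p = 0.0796), and 5.42e-04 with the lysate as a block, and it was higher in 3 of 4 lysates. The CDCA8 call was lost without polysome control 1 (log2 0.52), input control 2 (0.55) or input knockdown 2 (0.54), and without polysome knockdown 1 the log2 fold change was 0.43 (adjusted p = 0.0447).

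Among the mitotic kinases PLK1 rose and the other two did not pass the test. PLK1 (ENSG00000166851, chr16:23677656-23690367, + strand), the Polo-like kinase of spindle assembly and mitotic exit, had 157, 139, 182 and 135 CPM in polysome RNA against 107, 88.9, 125 and 105 CPM in input RNA. Every polysome library exceeded every input library (log2 0.53, SE 0.12, adjusted p = 0.00423). AURKA, the centrosomal Aurora kinase, and NEK2, which parts the centrosomes, had log2 fold changes of -0.07 (SE 0.15, adjusted p = 0.715) and -0.24 (SE 0.19, adjusted p = 0.347).

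The cyclin and CDK1 genes went apart. CCNA2 (cyclin A2, ENSG00000145386, chr4:121816444-121823933, - strand) had 47.4, 24.6, 52.0 and 45.3 CPM in polysome RNA against 93.7, 71.7, 105 and 86.1 CPM in input RNA. CDK1 (ENSG00000170312, chr10:60778331-60794852, + strand) had 58.3, 42.3, 34.1 and 33.4 CPM in polysome RNA against 99.9, 86.2, 75.7 and 69.7 CPM in input RNA. For both genes every polysome library lay below every input library, with log2 fold changes of -1.08 (SE 0.19, adjusted p = 0.00109) for CCNA2 and -0.996 (SE 0.12, adjusted p = 9.5e-05) for CDK1. CCNB1 (cyclin B1) averaged 52.1 ± 9.12 CPM in polysome RNA and 39.4 ± 4.25 CPM in input RNA (SD, n = 4 each). It was higher in 4 of 4 lysates, and its groups overlapped (log2 0.40, SE 0.14, adjusted p = 0.0452). CCNB2 (cyclin B2) and CDC25C, the phosphatase that activates CDK1, did not pass (log2 -0.02 and 0.27, adjusted p = 0.909 and 0.437). The CCNB1 call was lost without polysome control 1 (log2 0.25), polysome knockdown 1 (0.35), input control 1 (0.41), input control 2 (0.33) or input knockdown 2 (0.28).

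Of the 5 checkpoint genes 2 fell and none rose. TTK (the MPS1 kinase that starts checkpoint signalling) averaged 17.1 ± 2.30 CPM in polysome RNA and 33.3 ± 3.36 CPM in input RNA (log2 -0.96, SE 0.15, adjusted p = 5.7e-04, SD over n = 4 each). BUB3, which docks checkpoint proteins at kinetochores, averaged 66.0 ± 6.32 CPM in polysome RNA and 110.2 ± 6.25 CPM in input RNA (log2 -0.74, SE 0.09, adjusted p = 1.38e-04). Neither gene's groups overlapped. MAD2L1 (MAD2, which inhibits CDC20) was lower on polysomes in 4 of 4 lysates, with 44.2, 15.3, 34.1 and 25.9 CPM in polysome RNA against 63.1, 31.3, 85.5 and 45.3 CPM in input RNA. Its library 1 was above library 2 in every group, so the groups overlapped and the test without the lysate missed the threshold (log2 -0.89, SE 0.34, adjusted p = 0.0576). With the lysate as a block its log2 fold change was -0.92 with an adjusted p of 3.17e-06. BUB1 and BUB1B, a kinase and a kinase-like protein of the checkpoint, had log2 fold changes of -0.15 and 0.20 (adjusted p = 0.378 and 0.319).

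All 7 centromere and kinetochore members had negative fold changes, of which NUF2 and CENPF passed the test. NUF2 (ENSG00000143228, chr1:163266576-163355764, + strand) belongs with NDC80, SPC24 and SPC25 to the complex that grips microtubules. It had 23.8, 14.4, 15.0 and 14.3 CPM in polysome RNA against 41.7, 32.4, 44.5 and 36.3 CPM in input RNA, and the groups did not overlap (log2 -1.21, SE 0.18, adjusted p = 3.93e-04). Its partners in the complex did not pass: NDC80 at -0.08 (SE 0.16, adjusted p = 0.711), SPC24 at -0.11 (SE 0.10, adjusted p = 0.372) and SPC25 at -0.20 (SE 0.18, adjusted p = 0.416). Whether NUF2 differed from its partners was not tested. CENPF, a large kinetochore protein of late G2, averaged 98.6 ± 7.03 CPM in polysome RNA and 115 ± 2.81 CPM in input RNA without overlap (log2 -0.22, SE 0.08, adjusted p = 0.0477). The CENPF call was lost without any of 6 libraries: polysome control 1 (log2 -0.19), polysome knockdown 1 (-0.19), input control 1 (-0.23), input control 2 (-0.27), input knockdown 1 (-0.26) and input knockdown 2 (-0.25). CENPA, the centromeric histone, and CENPE, a kinetochore motor, had log2 fold changes of -0.07 and -0.36 (adjusted p = 0.819 and 0.0975).

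**Figure D2:**
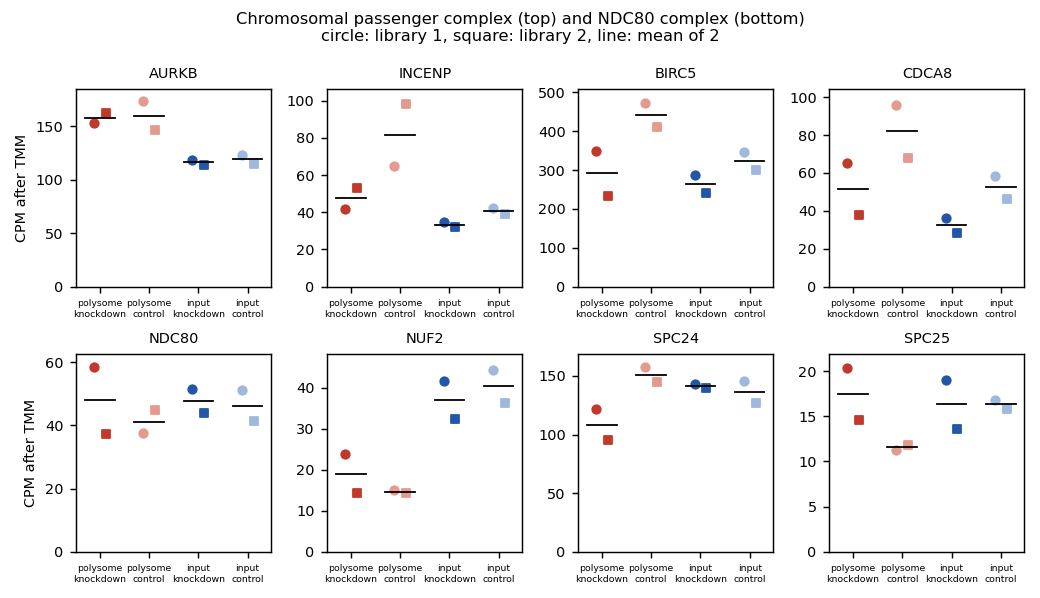
CPM after TMM scaling (y axis) in the 4 groups (x axis) for the 4 chromosomal passenger genes (top) and the 4 genes of the NDC80 complex (bottom), with a circle for library 1, a square for library 2 and a line for their mean. The passenger genes AURKB, INCENP and CDCA8 had higher polysome than input levels in each lysate, and NUF2 alone in the lower row had all its polysome libraries below its input libraries.

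The spindle motors and assembly factors held the deepest drop. NUSAP1 (ENSG00000137804, chr15:41332694-41381050, + strand), which bundles spindle microtubules near chromosomes, had 45.7, 37.0, 31.3 and 26.6 CPM in polysome RNA against 104, 80.3, 80.9 and 78.9 CPM in input RNA. The polysome level was 0.403 of the input level (log2 -1.31, SE 0.12, adjusted p = 1.92e-05). ASPM (ENSG00000066279, chr1:197084128-197146694, - strand), a spindle pole protein, had 10.9, 8.97, 15.3 and 10.8 CPM in polysome RNA against 24.3, 24.5, 29.01 and 26.8 CPM in input RNA (log2 -1.19, SE 0.16, adjusted p = 2.29e-04). KIF11, the Eg5 motor that pushes spindle poles apart, averaged 34.0 ± 3.51 CPM in polysome RNA and 61.4 ± 11.1 CPM in input RNA (SD, n = 4 each, log2 -0.85, SE 0.14, adjusted p = 8.03e-04). For all 3 of these genes no polysome library reached the lowest input library.

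KIF2C (MCAK, ENSG00000142945, chr1:44739818-44767767, + strand), a motor that takes microtubules apart at kinetochores, went the other way. It had 80.4, 58.2, 91.2 and 78.1 CPM in polysome RNA against 52.7, 42.5, 47.7 and 50.8 CPM in input RNA, without overlap (log2 0.66, SE 0.13, adjusted p = 0.0021). KIF4A, a chromokinesin, and TPX2, which activates AURKA on the spindle, did not pass (log2 0.37 and 0.14, adjusted p = 0.0958 and 0.203).

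In the cytokinesis group KIF23 and ANLN fell and PRC1 rose. KIF23 (ENSG00000137807, chr15:69414246-69448427, + strand), the motor of centralspindlin, had 8.47, 5.59, 6.95 and 6.45 CPM in polysome RNA against 15.0, 10.9, 16.1 and 13.0 CPM in input RNA (log2 -0.99, SE 0.22, adjusted p = 0.00413). ANLN (anillin, a scaffold of the contractile ring) averaged 32.8 ± 6.89 CPM in polysome RNA and 63.6 ± 13.5 CPM in input RNA (SD, n = 4 each, log2 -0.95, SE 0.19, adjusted p = 0.00264). Both genes had non-overlapping groups. PRC1, which crosslinks the central spindle, averaged 13.5 ± 1.61 CPM in polysome RNA and 9.46 ± 0.216 CPM in input RNA, also without overlap (log2 0.51, SE 0.17, adjusted p = 0.0317), with the uncertainty of its shared exons. Its call was lost without polysome control 1 (log2 0.46), input control 1 (0.50), input control 2 (0.46), input knockdown 1 (0.48) or input knockdown 2 (0.48). ECT2, the exchange factor that switches on RhoA, was lower in 4 of 4 lysates (log2 -0.62, SE 0.26, adjusted p = 0.0783, and 0.0118 with the lysate as a block). KIF20A, a motor of the central spindle, was also lower in 4 of 4 lysates and did not pass (log2 -0.32, adjusted p = 0.115).

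TOP2A, the topoisomerase that untangles chromosomes, had 54.5, 36.0, 44.2 and 75.4 CPM in polysome RNA against 78.8, 80.2, 68.2 and 70.4 CPM in input RNA (log2 -0.51, SE 0.18, adjusted p = 0.0393). Polysome control 2 lay above 2 of the input libraries, so the groups overlapped, and the ratio in that lysate was above 1. The TOP2A call was lost without polysome control 1 (log2 -0.35), polysome knockdown 2 (-0.39), input knockdown 1 (-0.55) or input knockdown 2 (-0.54). FOXM1, the transcription factor of G2 and M genes, was higher in 4 of 4 lysates (log2 0.27, SE 0.13, adjusted p = 0.112, and 0.0149 with the lysate as a block).

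Over all members, 12 were higher and 15 were lower on polysomes in 4 of 4 lysates, against 23.8% and 32.1% of all genes tested. Groups of 4 polysome and 4 input libraries did not overlap for 6 members above and 11 below, against 17.7% and 22.7% of all genes tested, 40.4% together. With the lysate as a block 12 members were called higher and 14 lower, against 21.3% and 23.8% of all genes. That edgeR fit kept the calls of CCNB1 (adjusted p = 0.00523), CDCA8 (3.34e-05), CENPF (0.0193), PRC1 (0.041) and TOP2A (7.23e-04). These are the genes whose calls in the main fit were lost when single libraries were left out. With a filter at a mean of 10 CPM, 8 of 39 members were higher and 17 of 39 lower, against 34.8% and 34.9% of genes, so the split among the members leans further to lower under that filter.

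Base composition went with this split. The mitosis mRNAs were AT-rich: their median GC content was 43.6%, against 49.8% for 13085 protein-coding genes tested, and 30 of 40 lay below that median (GENCODE v29 representative transcripts on GRCh38). At the third codon position the medians were 44.4% and 60.5%, with 31 of 40 members below. They were not long as a group: the median mRNA length was 2838 bases, against 3066 bases over the coding genes, although the median coding length was 1653 bases against 1371. The 9 members higher on polysomes had a median GC content of 51.4% and a median length of 2227 bases, while the 12 lower members had 39.6% and 4255 bases. The Spearman correlation of GC content with the log2 polysome over input ratio was 0.79 across the 40 members and 0.57 across the 13085 coding genes, given as a description because genes of a library share its chemistry and scaling.

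**Figure D3:**
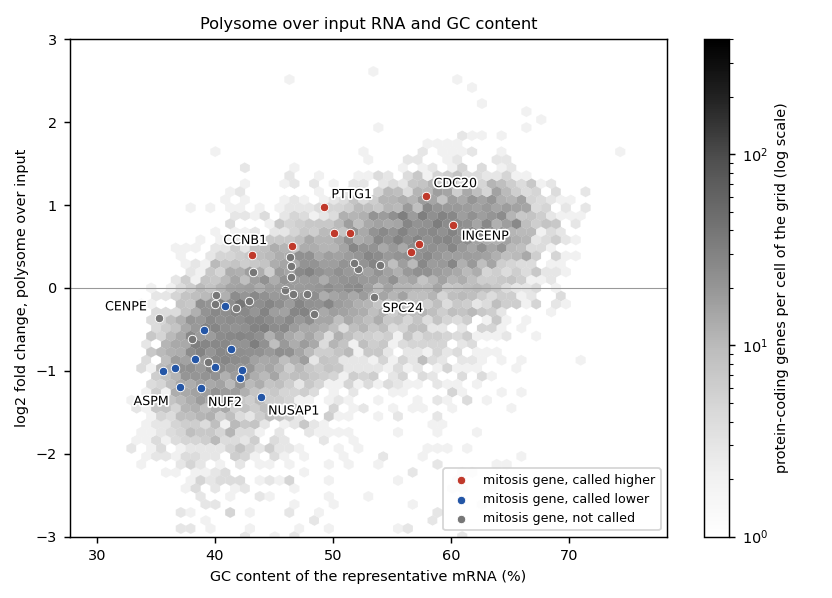
GC content of the representative mRNA (x axis, %) against the log2 fold change of polysome over input RNA (y axis), with grey cells for the density of protein-coding genes and dots for the 40 mitosis genes. The 576 of 13085 coding genes at or beyond 3 on the log2 scale are not drawn, and the mitosis genes with low GC content lie mostly below 0 and those with high GC content above it.

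When all genes tested were divided into 4 bins of equal size by GC content, the lowest bin held 17 members, of which 0 were higher and 11 lower on polysomes, with a median log2 fold change of -0.85. All genes of that bin had a median of -0.85 too, with 1.55% higher and 47.6% lower. In the second bin 3 of 13 members were higher and 1 lower, against 7.74% and 27.7% of genes. In the third bin 4 of 8 were higher and 0 lower, against 26.8% and 11.3%. Both members in the highest bin were higher, against 44.2% of genes.

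Members at the extremes of third-position GC content show the range in their letters. The stretches below are the middle 90 coding bases of the 2 higher members richest in GC at the third codon position, INCENP and PLK1, and of the lower member poorest in it, TTK (ENSG00000112742, chr6:80003887-80042527, + strand), read from GENCODE v29 transcripts (GRCh38) in the coding direction. Capitals mark G or C at the third position of a codon.
INCENP: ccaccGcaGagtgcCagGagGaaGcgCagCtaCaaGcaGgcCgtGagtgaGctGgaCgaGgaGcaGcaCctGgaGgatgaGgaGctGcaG
PLK1: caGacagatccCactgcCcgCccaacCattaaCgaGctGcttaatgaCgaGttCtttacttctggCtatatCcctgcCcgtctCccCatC
TTK: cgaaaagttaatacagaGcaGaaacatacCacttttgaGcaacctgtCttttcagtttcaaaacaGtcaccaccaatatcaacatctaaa
In INCENP 26 of the 30 codons from 443 to 472 end in G or C, and in PLK1 17 of 30 in codons 287 to 316. TTK has 6 of 30 in codons 414 to 443. Over the whole coding sequence the shares are 75.6% for INCENP, 73.3% for PLK1 and 29.99% for TTK. The median share was 58.1% over the higher members and 37.0% over the lower ones, but single members departed from this. SPC24 had the highest share of all members, 79.2%, with a log2 fold change of -0.11. The higher members PTTG1 and CCNB1 had shares of 43.1% and 40.4%.

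A second fit took out, in each library, the smooth dependence of counts on GC content and exon length. In it 12 members were higher and 7 lower on polysomes, against 10.4% and 18.3% of 16477 genes, and the members' median log2 fold change was 0.09 against -0.22 over all genes. Shares among genes averaging 10 CPM or more, as 39 members do, were not computed for the corrected fits. CDC20 (log2 0.78, adjusted p = 7.41e-04), PTTG1 (1.27, adjusted p = 1.9e-05), CCNB1 (0.96, adjusted p = 7.95e-04), CDCA8 (0.65, adjusted p = 0.0248), KIF2C (0.59, adjusted p = 0.0068) and PRC1 (0.64, adjusted p = 0.016) stayed higher. NUSAP1 (-0.85, adjusted p = 5.64e-04), KIF23 (-0.69), ASPM (-0.63), NUF2 (-0.52), ANLN (-0.49) and BUB3 (-0.44) stayed lower. The others lost their calls: CDK1 went to -0.10, TTK to -0.18, KIF11 to -0.21, TOP2A to -0.01, AURKB to 0.11 and INCENP to 0.01, while CCNA2 at -0.52 missed the threshold (adjusted p = 0.0538). With the lysate as a block beside the correction, CCNA2 was lower (-0.55, adjusted p = 4.38e-04), as was MAD2L1 (-0.39, adjusted p = 0.0182), and CCNB2 was higher (0.33, adjusted p = 0.012). That fit called 13 members higher and 9 lower, against 12.4% and 21% of genes. PLK1 and CENPF turned in sign, to -0.11 and 0.08, without passing.

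Some members passed only after the correction. BUB1B (log2 0.55), UBE2C (0.47), NDC80 (0.49), SPC25 (0.72), KIF4A (0.55) and TPX2 (0.36) were then higher, and SPC24 (-0.36) was then lower. Within the NDC80 complex the corrected values thus lay on both sides, with NDC80 and SPC25 higher and NUF2 and SPC24 lower. The correction removes only a smooth dependence on overall GC content and on exon length, whose source was not tested.

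**Figure D4:**
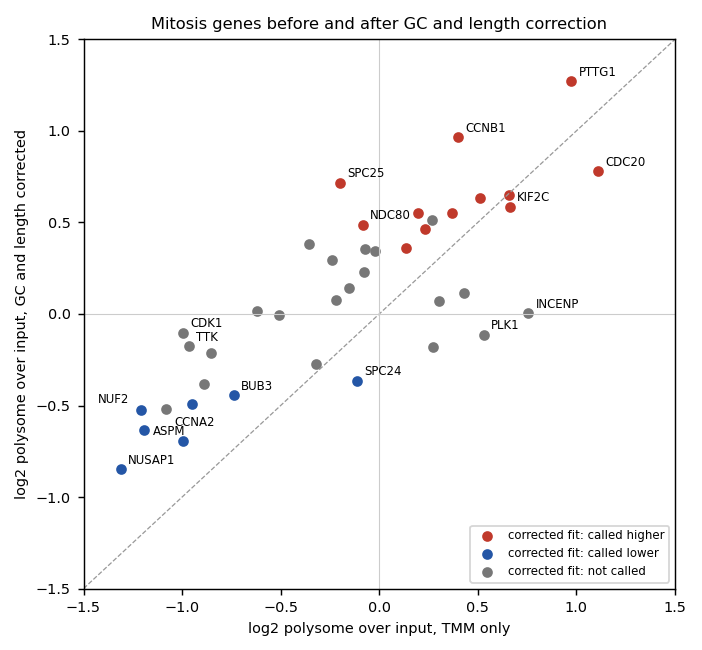
Log2 fold change of polysome over input RNA for the 40 mitosis genes with TMM scaling only (x axis) and after correction for GC content and length (y axis), coloured by the call in the corrected fit, with a dashed line of equality. CDC20, PTTG1 and KIF2C stay high and NUSAP1, ASPM and NUF2 stay low, while CDK1, TTK, PLK1 and INCENP move to near 0.

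The label comparison set libraries labelled knockdown against libraries labelled control. FBL itself did not differ between these labels, so the values describe the labels and do not bear on FBL depletion. In input RNA 0 of 40 members passed the test, as did 0 of 16503 genes (0%), while 1 member and 744 genes had an unadjusted p under 0.05. The members' median log2 fold change was -0.08, within a range of -0.69 to 0.36. The smallest p was that of CDCA8, at 36.3 and 28.5 CPM in the libraries labelled knockdown and 58.5 and 46.3 CPM in those labelled control (log2 -0.69, SE 0.27, adjusted p = 1). CDK1 had 99.9 and 86.2 CPM in knockdown and 75.7 and 69.7 CPM in control (log2 0.36, SE 0.17, adjusted p = 1). FOXM1 had 63.3 and 48.7 CPM in knockdown and 75.1 and 67.6 CPM in control (log2 -0.35, SE 0.18, adjusted p = 1). Single libraries moved these values: the log2 fold change of CDK1 was 0.22 without input knockdown 1, and that of FOXM1 was -0.18 without input knockdown 2 and -0.58 without input knockdown 1. The groups of 2 did not overlap for these 3 genes, nor for KIF20A and TOP2A (above) and AURKA, BUB3, INCENP, BIRC5 and ASPM (below). That makes 3 above and 7 below, against 21.1% and 20.3% of all genes. DESeq2 and limma-voom also called 0 members in input RNA.

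In polysome RNA 0 of 40 members passed between labels, against 0.248% of genes higher and 0.63% lower (0.879% in all). Before adjustment the p of 8 members lay below 0.05, as did that of 2987 genes among the 16503 tested, a similar share. The members' median log2 fold change was -0.04, beside -0.06 over all genes. INCENP had the smallest p, with 41.9 and 53.0 CPM in polysome knockdown against 64.9 and 98.0 CPM in polysome control (log2 -0.78, SE 0.20, adjusted p = 0.0966). SPC24 had 122 and 95.4 CPM in knockdown against 158 and 145 CPM in control (log2 -0.48, SE 0.14, adjusted p = 0.118). CDK1 had 58.3 and 42.3 CPM in knockdown against 34.1 and 33.4 CPM in control (log2 0.58, SE 0.17, adjusted p = 0.123). The INCENP value was -0.45 without polysome control 2, the SPC24 value -0.31 without polysome knockdown 2 and the CDK1 value 0.33 without polysome knockdown 1. None of these 3 genes overlapped between labels, and over the members 6 lay above and 7 below without overlap, against 15.4% and 23.6% of all genes.

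The 4 chromosomal passenger genes had negative label fold changes in both kinds of RNA, at -0.78 (INCENP), -0.66 (CDCA8), -0.60 (BIRC5) and -0.02 (AURKB) in polysome RNA and -0.28, -0.69, -0.29 and -0.03 in input RNA. None passed in the main edgeR fit, which has no term for the library number. The input and polysome libraries of a lysate are not independent. Calls in polysome RNA depended on the method: DESeq2 called CDK1, PTTG1 and NUSAP1 higher and INCENP, BIRC5 and SPC24 lower, against 3.08% and 4.21% of genes. Without polysome knockdown 1, CCNA2, BIRC5, CDCA8 and SPC24 were called lower, 4 members in all, against 6% of genes lower and 2.21% higher in that fit. Summed levels of 6 RNA quality and stress genes were 543 and 358 CPM in polysome knockdown against 578 and 473 CPM in polysome control, and their part in these differences was not tested.

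**Figure D5:**
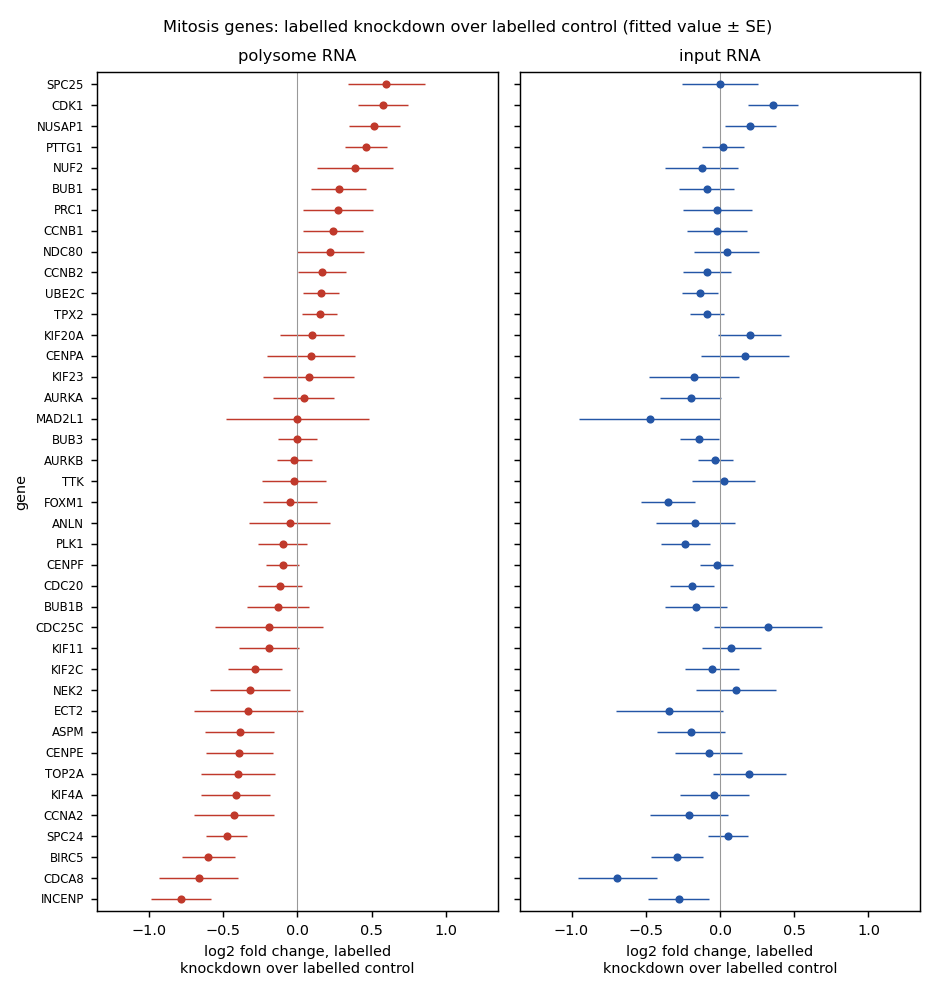
Log2 fold change of libraries labelled knockdown over libraries labelled control (x axis, fitted value ± SE) for the 40 mitosis genes (y axis, in the order of the polysome value), in polysome RNA (left) and input RNA (right). No gene passed the test in either panel, and the passenger genes INCENP, CDCA8 and BIRC5 have the lowest polysome values.

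Whether polysome association itself differed between labels was tested with the interaction term. No member passed, as was so for 0 of 16503 genes (0%), with 1 member and 1046 genes at an unadjusted p under 0.05, and DESeq2 called 0 members as well. The 3 smallest p-values belonged to SPC24 (log2 -0.53, SE 0.19, adjusted p = 0.767), PTTG1 (0.44, SE 0.20, adjusted p = 0.773) and INCENP (-0.50, SE 0.29, adjusted p = 0.78). For SPC24 the polysome over input log2 ratio was -0.23 and -0.55 in lysates labelled knockdown and 0.11 and 0.19 in lysates labelled control. PTTG1 had ratios of 1.12 and 1.27 in knockdown lysates and 0.92 and 0.55 in control lysates, and INCENP 0.27 and 0.72 against 0.62 and 1.33. The ratios of SPC24 and PTTG1 thus did not overlap between labels and those of INCENP did. These genes were picked by their p-values, and the share of all genes without overlap in this ratio was not computed. Without polysome control 2 the interaction was -0.17 for INCENP and 0.24 for PTTG1, and without polysome control 1 it was -0.77 and 0.69. For SPC24 it was -0.35 without input control 2.

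The library number, which the titles give and whose meaning they do not state, also went with the mitosis genes. After these values had been seen, members were counted whose library 1 exceeded library 2 in all 4 groups: there were 22 of 40, and 0 of 40 lay the other way. Over all genes tested the shares were 12.1% and 9.76%, and over genes averaging 10 CPM or more 17.9% and 12.9%. MAD2L1 showed the widest gap, with library 1 at 2.88 times library 2 in polysome knockdown, 1.32 times in polysome control, 2.01 times in input knockdown and 1.89 times in input control. CDC20 stood at 1.21, 1.12, 1.25 and 1.18 times in the same order, CDK1 at 1.38, 1.02, 1.16 and 1.09 times, and CCNA2 at 1.93, 1.15, 1.31 and 1.22 times. FBL was lower in the same libraries numbered 2. The 6 RNA quality and stress genes went with the number too, with summed levels in library 1 and library 2 of 543 and 358 CPM in polysome knockdown, 578 and 473 CPM in polysome control, 601 and 510.3 CPM in input knockdown, and 641 and 589.9 CPM in input control. The summed myeloid, lymphoid, and erythroid and megakaryocyte markers were all lower in library 1 than in library 2 of each group, by the least for myeloid markers in polysome knockdown (1835 and 1838 CPM). The part of FBL and of these lists in the differences was not tested. Input and polysome libraries of a lysate share their cells, so the 4 groups hold 4 lysates and not 8 independent cultures.

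The promoters of these genes share sequence elements that the list did not use. RefSeq windows (GRCh38.p14) of 300 bases, from 250 before to 50 after the start, were found for 33 of 40 members as 40 windows, since some genes have several starts. AURKA, BUB3, TTK, UBE2C, BIRC5, TPX2 and FOXM1 had no window. TTTGAA or TTTAAA on either strand, the letters of the cell cycle homology element through which DREAM and MYB-MuvB act, was in 32 of 40 windows (80%), against 24% of 35116 windows of all genes. CCAAT on either strand, the letters read by NF-Y, was in 31 of 40 (77.5%), against 34.6%, and both elements were in 62.5% against 9.27%. Of the windows of members higher on polysomes 9 of 11 held the first element, and of those of lower members 10 of 11.

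The following stretches show the 200 bases before a RefSeq start, 5′ to 3′ on the gene's strand, of the 2 most raised and 2 most lowered members of the polysome comparison. Where a gene has several starts, the start whose 200 bases hold the most matches was used. RefSeq starts can lie inside the gene spans given above, as the start used for NUF2 does. Capitals mark the motif TTTGAA (read as TTCAAA when it lies on the other strand), the motif TTTAAA (its own reverse complement) and the motif CCAAT (read as ATTGG when it lies on the other strand). In PTTG1 a match of the last motif on each strand overlaps the other.
CDC20: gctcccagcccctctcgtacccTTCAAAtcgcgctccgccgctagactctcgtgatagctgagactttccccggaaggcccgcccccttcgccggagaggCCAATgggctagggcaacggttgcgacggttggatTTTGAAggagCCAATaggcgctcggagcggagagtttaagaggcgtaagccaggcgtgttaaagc
PTTG1: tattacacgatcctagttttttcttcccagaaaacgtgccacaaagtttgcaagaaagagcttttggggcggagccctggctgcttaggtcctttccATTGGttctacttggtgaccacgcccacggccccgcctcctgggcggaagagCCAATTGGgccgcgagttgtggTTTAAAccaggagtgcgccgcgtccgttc
NUSAP1: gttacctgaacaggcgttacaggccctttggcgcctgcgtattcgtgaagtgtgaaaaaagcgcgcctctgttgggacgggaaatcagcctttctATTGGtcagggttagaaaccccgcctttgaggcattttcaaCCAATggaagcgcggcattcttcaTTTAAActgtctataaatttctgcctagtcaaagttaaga
NUF2: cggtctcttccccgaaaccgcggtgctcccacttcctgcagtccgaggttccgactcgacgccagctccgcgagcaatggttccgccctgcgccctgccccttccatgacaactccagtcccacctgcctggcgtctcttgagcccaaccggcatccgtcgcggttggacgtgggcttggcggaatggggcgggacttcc
These lie at chr1:43358781-43358980 (CDC20), chr5:160421655-160421854 (PTTG1), chr15:41332681-41332880 (NUSAP1) and chr1:163321754-163321953 (NUF2), all on the + strand. CDC20 and PTTG1 hold 4 matches each and NUSAP1 holds 3. NUF2 holds 0, which says only that these letters are not in this stretch. In the stretches so chosen, CDC20 and NUSAP1, at the ends of the polysome comparison, both hold letters of the cell cycle element and CCAAT.

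Other genes of division were counted from lists of non-members. Of 14 cyclin, CDK and G2/M entry regulators tested, 3 were higher and 6 lower on polysomes, of 30 other kinetochore and centromere genes 5 and 12, and of 26 other spindle and cytokinesis genes 6 and 5. Of 17 anaphase-promoting complex genes 6 were higher and 4 lower, of 19 cohesin and condensin genes 2 and 6, and of 15 DREAM and MYB-MuvB genes 1 and 6. Of 48 DNA replication and G1/S genes 18 were higher and 10 lower. The background for these counts is again 20% higher and 22.8% lower over all genes tested. Among genes averaging 10 CPM or more it is 38.1% higher and 27.7% lower. The median log2 fold changes were -0.25, -0.58, -0.16, -0.25, -0.30, -0.47 and 0.02 in the order of the lists.

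The kinetochore list repeated the spread seen among the members. CENPM, a subunit of the inner kinetochore, averaged 208 ± 14.3 CPM in polysome RNA and 88.4 ± 3.47 CPM in input RNA (SD, n = 4 each, log2 1.24, SE 0.08, adjusted p = 2.56e-06), and CENPW also rose (log2 1.01, adjusted p = 1.1e-04). CENPK fell to 5.56 ± 2.34 CPM in polysome RNA, against 20.7 ± 3.53 CPM in input RNA (log2 -1.93, SE 0.25, adjusted p = 1.5e-04), as did KNTC1 (log2 -1.88, adjusted p = 5.05e-04). Among regulators CCNF (cyclin F, log2 1.11) and CDC25B (log2 0.93), a phosphatase that activates CDK1, rose, while the kinases MELK (log2 -1.596) and PBK (log2 -1.30) fell. KIF22 (log2 1.01) and NUMA1 (log2 0.76), a chromokinesin and a spindle pole protein, rose, and the kinesins KIF18A (log2 -1.40) and KIF20B (log2 -1.37) fell.

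For anaphase, ANAPC11 (log2 1.19), the catalytic RING subunit, and UBE2S (log2 1.12), the ubiquitin chain-extending enzyme, rose beside CDC20. FBXO5 (EMI1, log2 -1.17), an inhibitor of the complex, and its subunit CDC16 (log2 -0.83) fell. In the other lists the largest rises were those of NCAPH2 (condensin II, log2 0.82), CDCA5 (sororin, log2 0.82), MYBL2 (B-MYB, log2 1.03), MCM2 (log2 1.102) and E2F2 (log2 1.09). The largest falls were those of SMC4 (log2 -1.73), NCAPG2 (log2 -1.18), LIN54 (log2 -1.72), LIN9 (log2 -0.85), RFC3 (log2 -1.17) and ORC6 (log2 -0.77). These rankings cover only called genes whose higher group averaged 10 CPM or more. A gene of the DREAM and MYB-MuvB list outside that rule had a log2 fold change of -2.83. SMC4 had 3.85, 1.93, 3.68 and 38.3 CPM in the 4 polysome libraries against 28.2, 22.3, 32.9 and 21.1 CPM in input RNA, and polysome control 2 lay above all input libraries (adjusted p = 0.0296).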

How the data were processed

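RNA was sequenced from input and polysome fractions of OCI-AML3 cells in 8 libraries. The authors deposited raw read counts per gene. Per the submitters' processing notes, Trimmomatic 0.38, Bowtie2 and HTSeq 0.11.2 were used with GRCh38. The version of Bowtie2, the annotation release, the layout and the use of strand were not given in the sources used here, so reads of overlapping or antisense genes cannot be told apart. Bowtie2 does not align across introns, which can lower counts over exon junctions or move reads to processed pseudogenes. Lines that name no gene held 13.2% to 15.0% of the reads listed and stayed out of library sizes and tests. Groups and library numbers follow the labels.

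The counts went into edgeR 4.0.16 under R 4.3.3 (TMM scaling, filterByExpr, quasi-likelihood F test, 1 term for each of 4 groups, 4 residual degrees of freedom), with Benjamini-Hochberg adjustment over 16503 genes and a threshold of 0.05. All 8 libraries entered each fit. Because nothing says that libraries came from separate cultures, p-values reflect only how these libraries vary, which may be technical. Libraries of a group differed beyond sampling noise (chi-square per degree of freedom 22.1 to 48.7). GC content, lengths and coordinates came from GENCODE v29 on GRCh38.

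The members and the other gene lists were chosen with earlier results of these data known. Values in every library and full statistics are given for the 6 largest increases and 6 largest decreases among called members whose higher group averaged 10 CPM or more. Where fewer than 3 members were called, they are given for the 3 with the smallest p. Up to 2 increases and 2 decreases are named from each other list by the same minimum. MAD2L1, TOP2A and SMC4 values in every library, and the counts by library number, were added after the values were seen.

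Per the protocol, input and gradient came from the same supernatant, and the shared title numbers were taken to mark the lysate. Deviations of the input and polysome libraries of a lysate correlated at 0.363 in knockdown and 0.316 in control over 8159 genes, so the lysate was also fitted as a block. Alternatives were other scalings (RLE, upper quartile), no filter, a mean of at least 10 CPM, DESeq2 1.42.0, limma-voom (limma 3.58.1), leaving out each library, a correction for GC content and exon length (splines with 5 degrees of freedom), the block alone and with that correction, and the 4 libraries of a fraction only.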

Additional observations from a re-analysis of the deposited data

How the results depend on the processing

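Other scalings, filters and tools called 8 to 11 members higher and 11 to 17 lower in polysome against input RNA. Of the 9 higher members 7 were called in all 6 of these fits (CCNB1 was lost at 10 CPM and PRC1 without a filter), and of the 12 lower members 11 were (CENPF was lost in 3 fits). The correction for GC content and length called 7 lower, of which 6 were among the 12. Leaving out a library gave 6 to 13 members higher and 10 to 13 lower, with members' medians of -0.20 to -0.06. Reversed values were PLK1 at -0.11 and CENPF at 0.075 with the correction, and PLK1 at -0.11, CENPF at 0.072 and INCENP at -0.013 with the lysate as a block and the correction. The cause was not tested.

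Between labels in polysome RNA, calls moved from 0 to 3 members higher and 3 lower without a filter (2.35% and 2.6% of genes), and to 3 higher and 3 lower by DESeq2. The filter at 10 CPM gave 1 higher (2.38% of genes). Leaving out a library gave 0 to 4 lower and 0 higher, with medians of -0.17 to 0.10. The library number within a fraction pairs no samples by the labels (its deviations correlated at 0.198 between labels in polysome RNA and 0.478 in input RNA). As a replicate block it gave 4 members lower (INCENP, adjusted p = 0.0333, BIRC5, 0.03, CDCA8, 0.0379, and SPC24, 0.0485), against 2.31% of genes lower and 1.03% higher. With the correction it gave 4 lower and 1 higher, against 1.45% and 0.71% of genes. In input RNA the fit without a filter called 1 member lower (CDCA8), against 0.0842% of genes. Leaving out a library gave 0 calls there, with medians of -0.22 to 0.00, and 0 calls for the interaction, with medians of -0.08 to 0.32. The lysate as a block gave 0 calls for the interaction. The lone library left in a group is assumed to vary like the others. With 2 libraries a group, small changes are not detectable, and 22.2 mega-counts in polysome knockdown 2 give its low genes the widest counting error.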
